A study of Mus musculus with 6 samples.

Results

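The 10 genes described here mark the fibroblasts of the adventitia, the outer coat of an artery. They are Pi16, Dpp4, Dpt, Clec3b, Gsn, Serpinf1, Entpd2, Ly6c1, Cd34 and Mfap5, chosen by name from the 18476 genes of the deposited table, and all 10 were found there. One group was injured femoral arteries treated from outside the vessel with vasostatin-2, a fragment of the secretory granule protein chromogranin A, and the other was arteries injured in the same way and given saline. All mice were wild-type C57BL/6 (no age is stated), all arteries were taken 3 days after wire injury, and each group had 3 libraries that the submitters call biological replicates, all in 1 batch. The RNA came from whole injured arteries, although the cell type entered in the labels is the vascular smooth muscle cell. Whether a library stands for 1 mouse or a pool is not stated, so p-values measure the spread between these libraries only.

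Fibroblasts of the adventitia hold a reserve of stromal cells that line vessels in many organs, often called universal or progenitor-like fibroblasts. In mouse tissues these cells are recognised by Pi16 and Dpp4, together with secreted matrix proteins such as Dpt and Clec3b. After arterial injury, adventitial fibroblasts are known to divide, to move and to turn on genes of matrix production and contraction. In bulk RNA of a whole artery, fewer such cells and less RNA of these genes per cell cannot be told apart.

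Total estimated counts lay between 19333730 and 20105995 per library, and depth differed little between groups. The libraries differed in other tissue content. Transcripts of a 12-gene skeletal muscle list summed to 1477 TPM (a level that allows for gene length and library size) in vasostatin-2 replicate 3, and to between 93.5 and 162 TPM in the other 5 libraries. Schwann cell transcripts, from a 10-gene list, summed to 1004 TPM in saline replicate 3 and to between 207 and 323 TPM elsewhere. Red cell transcripts, from 7 genes, summed to 43390 TPM in saline replicate 2, and to between 1149 and 9494 TPM elsewhere. Adipocyte transcripts, from a 10-gene list, summed to 8074 TPM in saline replicate 1 and to between 12510 and 17090 TPM elsewhere. As a check of the labelled cell type, 10 genes of contractile smooth muscle summed to between 219 and 538 TPM with vasostatin-2 and between 201 and 380.0 TPM with saline, and Myocd, the master regulator of that state, averaged below 1 TPM. Acta2 and Tagln, which contractile smooth muscle and activated fibroblasts share, are not in that sum; Tagln was at 495.5 ± 225 TPM with vasostatin-2 and 378 ± 173 TPM with saline (SD, n = 3 each). The 18 genes of a general fibroblast list summed to between 24670 and 29730 TPM with vasostatin-2 and between 19910 and 37630 TPM with saline. Such sums do not measure shares of cells. The part of this tissue content in the results below was not tested. A value without a library leaves out everything particular to that library, so it cannot single out tissue content. Leaving the listed muscle, red cell, Schwann and adipocyte genes out of the fit gave the 10 genes a median log2 fold change of 0.0546. That fit still held any other transcripts of these tissues.

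None of the 10 genes passed the test between vasostatin-2 and saline, and in each of them the groups overlapped. edgeR's quasi-likelihood test, with p-values adjusted by Benjamini-Hochberg over the 14557 genes tested, called 0 of the 10 and 0 of all genes, or 0% of those tested; limma-voom also called 0. The lowest adjusted p among the 10 was 0.71, for Pi16, and none had an unadjusted p under 0.05, which 7.14% of all genes had. DESeq2 called 0 of the 10, and 0.776% of all genes. Groups were free of overlap in 0 of the 10 and in 12.8% of all genes. Of the 10, 6 had a log2 fold change above 0, against 49.8% of all genes, and their median was 0.055, against −0.001 over all genes. That median was −0.047 without saline replicate 2 and 0.237 without saline replicate 3. All 10 passed the filter on low counts. The smallest two-sided p that an exact permutation of 3 against 3 libraries allows is 0.1, and the exact p of the 10 genes lay between 0.3 and 1.

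**Figure D1:**
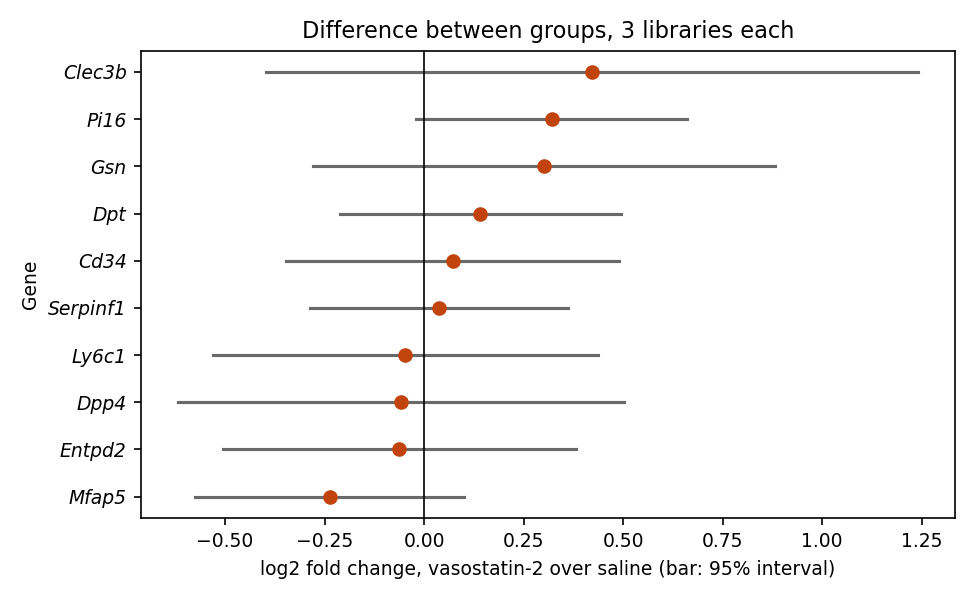
Log2 fold change of each of the 10 genes, vasostatin-2 over saline, from the quasi-likelihood fit (points), with 95% intervals as bars (3 libraries per group). Every interval spans 0; Clec3b has the widest, from −0.40 to 1.24.

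The genes were not equally abundant. Gsn was the most abundant, at a mean of 1003 TPM over the 6 libraries, followed by Serpinf1 at 641, Ly6c1 at 439, Mfap5 at 413, Dpt at 361 and Cd34 at 259.6 TPM. Clec3b at 84.2, Pi16 at 82.1, Entpd2 at 35.8 and Dpp4 at 8.88 TPM followed. The order of neighbours was not always clear: Clec3b lay above Pi16 in 3 of 6 libraries and Ly6c1 above Mfap5 in 4. The ranges over libraries did not overlap between Cd34 and Clec3b, between Pi16 and Entpd2, or between Entpd2 and Dpp4. Gsn averaged 113 times the level of Dpp4. The lowest estimated count of any of the 10 was 264 reads, for Dpp4 in saline replicate 2, where counting alone gives a coefficient of variation of 6.15%.

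**Figure D2:**
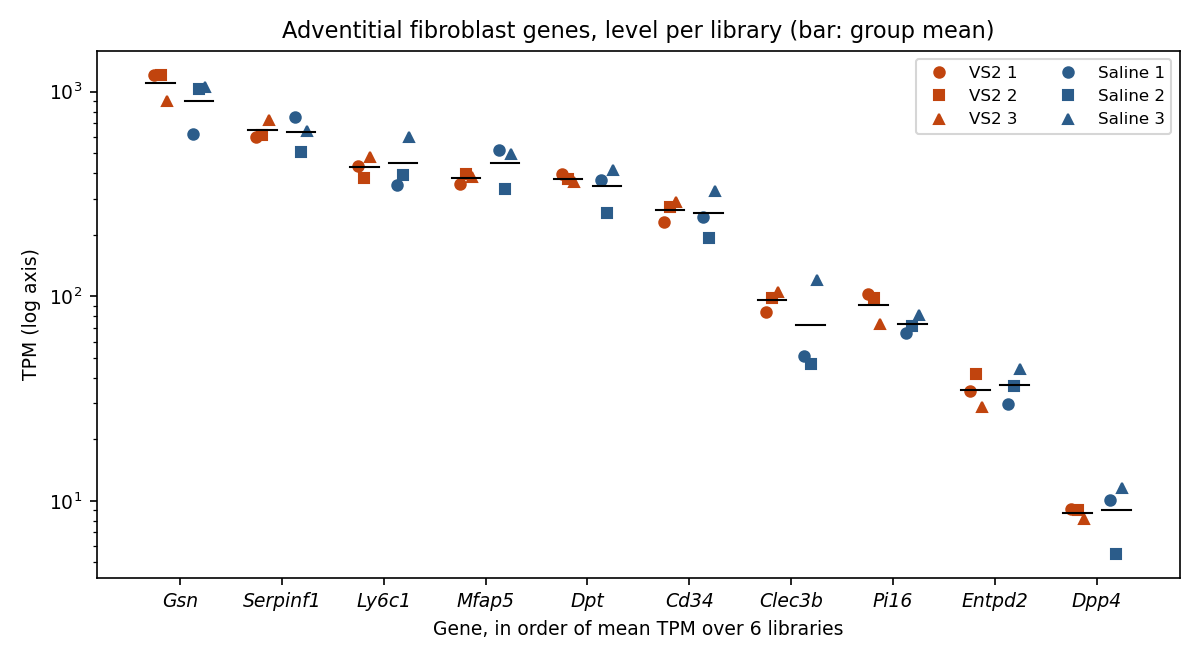
Level of each gene in each library, in TPM on a log axis, with vasostatin-2 (VS2) libraries left of saline libraries, a marker shape for each replicate, and a bar at each group mean. The groups overlap in all 10 genes, and the saline points are the more spread in most of them.

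Pi16 and Dpp4 define the progenitor-like fibroblast. Pi16 encodes peptidase inhibitor 16, a membrane-anchored glycoprotein, and lies on chromosome 17 from 29318796 to 29328903 (GRCm38.p6, as the deposited table places it). Its level was 102, 97.7 and 73.05 TPM in the vasostatin-2 libraries, against 66.4, 71.6 and 81.4 TPM in the saline libraries. Vasostatin-2 replicates 1 and 2 lay above every saline library and replicate 3 lay among them. The means were 91.0 ± 15.7 TPM with vasostatin-2 and 73.1 ± 7.62 TPM with saline (SD, n = 3 each). The log2 fold change was 0.32 (SE 0.14, 95% interval −0.02 to 0.66; adjusted p = 0.71 by edgeR's quasi-likelihood test). In the authors' deposited table Pi16 has a log2 fold change of 0.32, an unadjusted p of 0.0488 and a q of 0.8745, from DESeq2. Its sign held in each of 17 other settings of the analysis, with values from 0.23 to 0.52 on the log2 scale. The deposited row for Pi16 overlaps the antisense gene AC162182.1 and holds 4 RNAcentral entries among its 7 transcripts.

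Dpp4 encodes CD26, a serine peptidase on the cell surface that cleaves chemokines and incretins. Its level was 9.10, 9.01 and 8.10 TPM with vasostatin-2, against 10.1, 5.50 and 11.5 TPM with saline. The vasostatin-2 libraries lay close together, between the lowest saline library, replicate 2, and the other two. The log2 fold change was −0.06 (SE 0.23, 95% interval −0.62 to 0.50), and it changed sign when saline replicate 3 was left out (0.165). The deposited row for Dpp4, on chromosome 2 from 62330073 to 62470931, ends 58616 bases beyond the end of the RefSeq gene, is given on the plus strand although GENCODE places Dpp4 on the minus strand, and holds 3 RNAcentral entries among its 8 transcripts. It overlaps the antisense gene Gm13561 and the lincRNAs Gm13565 and Gm13564, so part of the reads counted for Dpp4 may be of other transcripts. That part cannot be separated in these files. The level of Dpp4 relative to Pi16 was 0.0974 ± 0.0118 with vasostatin-2 and 0.123 ± 0.0406 with saline (ratio of TPM, SD, n = 3 each), and the groups overlapped.

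Dpt and Clec3b are secreted markers of the same cells. Dpt encodes dermatopontin, which binds decorin and takes part in collagen fibril assembly. It was at 395, 373 and 362 TPM with vasostatin-2, against 369.8, 254 and 413 TPM with saline. All vasostatin-2 values lay between the lowest and the highest saline library. The means were 376 ± 16.5 TPM with vasostatin-2 and 345 ± 82.1 TPM with saline (SD, n = 3 each). The log2 fold change was 0.14 (SE 0.15, adjusted p = 0.879 by edgeR), and −0.01 without saline replicate 2. Its deposited row, on chromosome 1 from 164796663 to 164899591, ends 75317 bases beyond the RefSeq gene and overlaps Gm20743 on the same strand. On the opposite strand the row overlaps Gm32569 and Gm37403.

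Clec3b encodes tetranectin, a plasminogen-binding lectin, on chromosome 9 from 123150946 to 123157432. It varied most among the 10. Its level was 83.9, 98.6 and 105 TPM with vasostatin-2, against 51.0, 46.6 and 119.95 TPM with saline. Saline replicates 1 and 2 lay below every vasostatin-2 library and saline replicate 3 lay above them all. The means were 95.9 ± 10.9 TPM with vasostatin-2 and 72.5 ± 41.1 TPM with saline (SD, n = 3 each). The log2 fold change was 0.42 (SE 0.34, 95% interval −0.40 to 1.24; adjusted p = 0.836 by edgeR). Without saline replicate 3 the log2 fold change was 0.97 (adjusted p = 0.300 by edgeR, range over 17 settings 0.300 to 1.00). Without saline replicate 1 or 2 it was 0.21.

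Mfap5, Serpinf1 and Gsn encode abundant secreted or cytoskeletal proteins. Mfap5, a microfibril protein of elastic tissue (chromosome 6, 122513584 to 122530703), was at 353, 397 and 381 TPM with vasostatin-2, against 520.4, 334 and 494 TPM with saline. Saline replicates 1 and 3 lay above every vasostatin-2 library, and saline replicate 2 below them. The means were 377 ± 22.4 TPM with vasostatin-2 and 449.5 ± 100.9 TPM with saline (SD, n = 3 each). Its log2 fold change of −0.24 was the lowest of the 10 (SE 0.14, 95% interval −0.57 to 0.10; adjusted p = 0.765 by edgeR), and it stayed below 0 in all 17 other settings.

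Serpinf1 encodes pigment epithelium-derived factor, a secreted serpin without inhibitory activity that limits vessel growth and is also made by adipocytes (chromosome 11, 75410029 to 75422623). It was at 598, 617 and 724 TPM with vasostatin-2, against 755, 509.8 and 644 TPM with saline, so the saline libraries bracketed the vasostatin-2 libraries. Its log2 fold change of 0.04 (SE 0.14, 95% interval −0.29 to 0.36) was the one nearest to 0.

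Gsn encodes gelsolin, which severs actin filaments and is made by many cell types besides fibroblasts (chromosome 2, 35256359 to 35307902). It was at 1211, 1206 and 904 TPM with vasostatin-2, against 620.2, 1026 and 1049.8 TPM with saline. Saline replicate 1 stood well below the other 5 libraries, and vasostatin-2 replicate 3 lay below saline replicates 2 and 3. The means were 1107 ± 176 TPM with vasostatin-2 and 899 ± 241 TPM with saline (SD, n = 3 each). The log2 fold change was 0.30 (SE 0.24, adjusted p = 0.833 by edgeR), and 0.08 without saline replicate 1. The deposited row for Gsn overlaps Gm43128 on the same strand.

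Entpd2, Cd34 and Ly6c1 are surface proteins that other cells of the artery also carry. Entpd2, an enzyme that breaks down extracellular ATP and is also found on glial cells (chromosome 2, 25395874 to 25401323), was at 34.4, 41.7 and 28.7 TPM with vasostatin-2, against 29.6, 36.2 and 44.1 TPM with saline. Its log2 fold change was −0.06 (SE 0.19, 95% interval −0.51 to 0.38), and the groups covered nearly the same range. It overlaps the protein-coding gene Npdc1 on the same strand.

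Cd34, a sialomucin shared by adventitial fibroblasts, endothelial cells and blood progenitors (chromosome 1, 194938821 to 194961292), was at 232, 272 and 290.1 TPM with vasostatin-2, against 245, 192 and 326 TPM with saline. Saline replicates 2 and 3 were the lowest and the highest of the 6 libraries. Its log2 fold change was 0.07 (SE 0.18, 95% interval −0.35 to 0.49), and −0.06 without saline replicate 2. The deposited row for Cd34 overlaps the antisense gene Gm16897.

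Ly6c1 encodes a small lipid-anchored surface protein that in the mouse also marks endothelial cells (chromosome 15, 75044018 to 75048920). It was at 433, 380.3 and 479 TPM with vasostatin-2, against 349, 391 and 602 TPM with saline. Saline replicates 1 and 3 were the lowest and the highest library. Its log2 fold change was −0.05 (SE 0.20, 95% interval −0.53 to 0.44), and 0.20 without saline replicate 3. Endothelial transcripts, from a list of 12 genes, summed to 1601, 1705 and 1830 TPM with vasostatin-2. With saline they summed to 1705, 1522 and 1887 TPM. By edgeR 3 had an unadjusted p under 0.05, beside 7.14% of all genes, and 0 of the 12 passed the adjusted test of edgeR or DESeq2. Among them Pecam1, the endothelial adhesion molecule, was at 281 ± 5.70 TPM with vasostatin-2 and 294 ± 38.0 TPM with saline, and Eng, an endothelial receptor for TGF-beta family ligands, at 262 ± 25.9 and 247 ± 35.6 TPM (SD, n = 3 each). Of these 12 genes 6 were higher and 6 lower with vasostatin-2, and in 3 the groups did not overlap, beside 12.8% of all genes. Of these 3 Cldn5, a claudin of tight junctions, was the one that was higher, at 84.0 ± 12.9 TPM with vasostatin-2 and 67.3 ± 4.56 TPM with saline (SD, n = 3 each; log2 fold change 0.32, adjusted p = 0.684 by edgeR); it is named because it was the third gene without overlap. Cdh5, the cadherin of endothelial junctions, and Robo4, an endothelial guidance receptor, had log2 fold changes of −0.22 and −0.23 with no overlap between groups (adjusted p = 0.681 by edgeR for both).

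The value of Ly6c1 is uncertain because of a near copy, Ly6c2, a marker of monocytes that lies on chromosome 15 from 75108161 to 75112066. The coding sequences of both, as GENCODE M21 (GRCm38) gives them, are 393 bases long and differ at 9, an identity of 97.7%. The longest stretch without a difference is 188 bases. Of all windows of 50 bases in the Ly6c1 transcript, 31.7% occur unchanged in the Ly6c2 transcript. The first 90 coding bases, which hold 6 of the 9 differences, are shown to let the reader see how few bases separate the pair. Both are read 5′ to 3′ on the minus strand of chromosome 15, spliced over an intron, from the genomic stretches chr15:75047450-75048511 for Ly6c1 and chr15:75110608-75111667 for Ly6c2, and capitals mark the bases that differ.
Ly6c1: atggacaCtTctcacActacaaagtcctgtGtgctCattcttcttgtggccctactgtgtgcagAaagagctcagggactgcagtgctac
Ly6c2: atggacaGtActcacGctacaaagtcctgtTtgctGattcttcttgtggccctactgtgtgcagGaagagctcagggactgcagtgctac
In the same TPM columns Ly6c2 reached 0.286 ± 0.138 of the level of Ly6c1 with vasostatin-2 and 0.274 ± 0.141 with saline (SD, n = 3 each), and its share differed between libraries, from 0.185 in saline replicate 2 to 0.445 in vasostatin-2 replicate 3. The estimated counts of Ly6c1 were not whole numbers, as for Dpp4 in all 6 libraries and Mfap5 in the saline libraries, whereas those of the other 7 genes were whole.

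The spread among the saline libraries was larger than that among the vasostatin-2 libraries in 9 of the 10 genes, Pi16 being the exception. The median SD of log2 CPM (counts scaled by library size) was 0.166 with vasostatin-2 and 0.315 with saline, and over all genes 0.111 with vasostatin-2 and 0.159 with saline. Over all genes the saline SD was the larger in 65.8%, so the direction is shared with most of the table. Clec3b had the largest saline SD, 0.717, against 0.166 with vasostatin-2. On the scale of log2 CPM saline replicate 2 held the lowest value of 6 genes and saline replicate 1 that of the other 4. Saline replicate 3 held the highest value of 6, while Pi16 and Gsn were highest in vasostatin-2 replicate 1. Over all genes 23.2% had their lowest value in saline replicate 2, 21.0% in saline replicate 1, and 15.3% their highest in saline replicate 3. In TPM, the scale of the levels given above, saline replicate 2 held the lowest value of 6 of the 10 and of 36.4% of all genes. Saline replicate 3 held the highest TPM of 6 of the 10 and of 20.4% of all genes. These counts were made after the values had been seen.

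**Figure D3:**
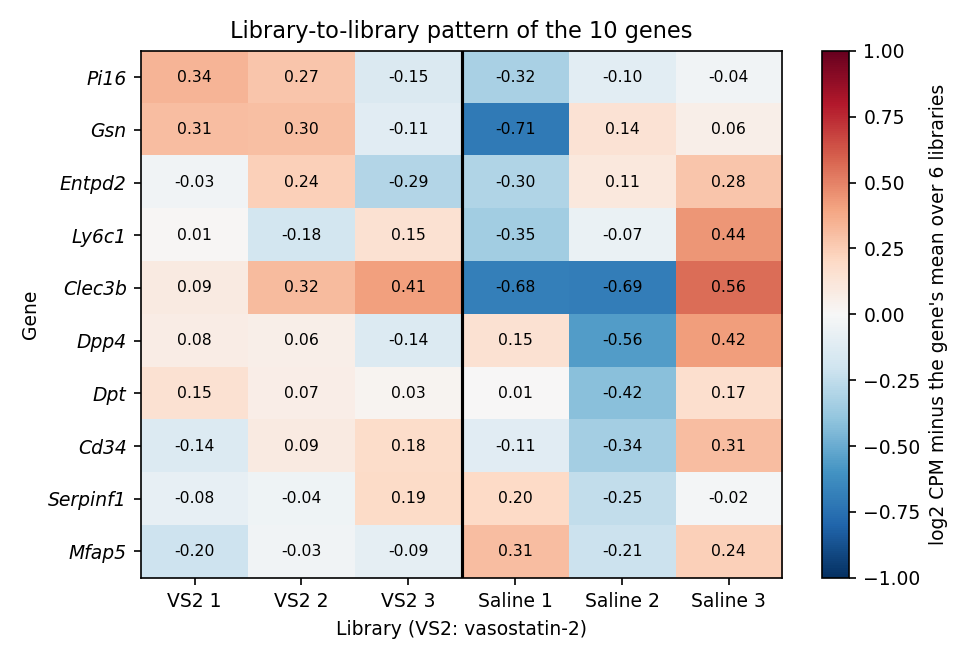
Log2 CPM of each gene in each library minus the gene's mean over the 6 libraries, vasostatin-2 (VS2) left of the line and saline right of it; red is above and blue below the mean. Saline replicate 3 is above the mean in 8 genes and just below it in Pi16 (−0.04) and Serpinf1 (−0.02); saline replicate 2 is the lowest in 6 genes.

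The 10 genes did not follow one pattern over the libraries. Likeness was measured as the root mean square difference, over 6 libraries, between the centred log2 CPM of 2 genes. Dpp4 and Dpt were the most alike pair, at 0.150, followed by Dpt and Cd34 at 0.157, and Serpinf1 and Mfap5 at 0.170. Pi16 was closest to Gsn, at 0.191, and both were lowest in saline replicate 1 and highest in vasostatin-2 replicates 1 and 2. For the 3 genes that varied most, the nearest among 11769 other genes averaging 5 CPM or more were looked up. Nearest to Clec3b were Hr at 0.107, Gpc3 at 0.143 and Tnxb at 0.169, where the median over all candidates was 0.520. Nearest to Gsn were Art3, Mgst3 and Mettl7a1, between 0.0471 and 0.0841, and nearest to Dpp4 were Pdgfd, Pxdc1 and Atp10a, between 0.0799 and 0.103.

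Other fibroblast lists were read from the same fit. In it 49.8% of all genes had a log2 fold change above 0, 7.14% an unadjusted p under 0.05, and 12.8% groups without overlap. Of 28 further genes of progenitor-like fibroblasts, 16 were higher and 12 lower with vasostatin-2, with a median log2 fold change of 0.035. Leaving out saline replicate 2 turned that median to −0.162, and leaving out saline replicate 3 gave 0.250. It was −0.013 when vasostatin-2 replicate 3 was left out. By edgeR and by DESeq2 0 passed the adjusted test, and 3 had an unadjusted p under 0.05. In scaled CPM 16 of 18 genes of the general fibroblast list, and 23.2% of all genes, were lowest in saline replicate 2. Of the 28 genes, 23 were lowest in that library and 2 in saline replicate 1, against 6 and 4 of the 10 genes. Saline replicate 3 held the highest value of 16 of the 28, 6 of the 10 and 15.3% of all genes. Ly6a, which encodes the stem cell antigen Sca-1, was at 1297 ± 277 TPM with vasostatin-2 and 1115 ± 276 TPM with saline, and Fbln2, a fibulin of the extracellular matrix, at 539 ± 36.3 and 468 ± 121 TPM (SD, n = 3 each). In 2 genes of the list the groups did not overlap in scaled CPM: Aldh1a3, a retinoic acid synthesising enzyme, at 12.6 ± 0.445 TPM with vasostatin-2 and 8.99 ± 2.16 TPM with saline (log2 fold change 0.50, adjusted p = 0.605 by edgeR), and Pcolce2, which aids procollagen processing, at 22.6 ± 4.11 and 17.3 ± 2.90 TPM (log2 fold change 0.40, adjusted p = 0.684 by edgeR). In TPM the groups of Pcolce2 did overlap, with 19.5 TPM in vasostatin-2 replicate 1 and 19.7 TPM in saline replicate 1.

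In the general fibroblast list 6 of 18 genes were higher and 12 lower with vasostatin-2, and the median was −0.045. By edgeR 0 passed the adjusted test and 3 had an unadjusted p under 0.05, beside 7.14% of all genes. DESeq2 called 1 of the 18, beside 0.776% of all genes. Leaving out saline replicate 1 turned the median to 0.165, and leaving out saline replicate 2 gave −0.191. Col3a1, a chain of fibrillar collagen, was at 5816 ± 665 TPM with vasostatin-2 and 6539 ± 2399 TPM with saline, and Sparc, a collagen-binding matricellular protein, at 5567 ± 446 and 5937 ± 1533 TPM (SD, n = 3 each). In 3 genes all vasostatin-2 libraries lay above all saline libraries in scaled CPM. Pdgfra, the platelet-derived growth factor receptor that marks fibroblasts, was at 82.5, 78.9 and 96.5 TPM with vasostatin-2, against 70.2, 51.7 and 55.4 TPM with saline, a log2 fold change of 0.56 (SE 0.12; adjusted p = 0.458 by edgeR). DESeq2 gave Pdgfra an adjusted p of 0.0143, and limma-voom and the edgeR alternatives gave between 0.287 and 1.00. Lum, the collagen-binding proteoglycan lumican, was at 543, 633 and 478 TPM with vasostatin-2, against 301, 235 and 489 TPM with saline. On the scaled CPM used in the test its groups did not overlap, but in TPM saline replicate 3 lay above vasostatin-2 replicate 3 (log2 fold change 0.71, SE 0.25, adjusted p = 0.681 by edgeR). Dcn, which encodes decorin, had a log2 fold change of 0.45 (adjusted p = 0.681 by edgeR) and is named because it was the third gene without overlap on the CPM scale. In TPM it was at 1549 in vasostatin-2 replicate 3 and 1554 in saline replicate 3, an overlap.

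Set beside Pdgfra in the same library, Pi16 was at 1.24, 1.24 and 0.757 of its level with vasostatin-2, against 0.946, 1.38 and 1.47 with saline (ratio of TPM). Dpp4 was at 0.110, 0.114 and 0.0839 of the level of Pdgfra with vasostatin-2, against 0.144, 0.106 and 0.207 with saline, and both ratios overlapped between groups. When the libraries were scaled so that the general fibroblast list had an equal mean in each, 0 of the 10 genes were called, 5 had a log2 fold change above 0 and their median was −0.007. On that scale the SD among saline libraries was 0.451 for Pi16, against 0.151 before, and 0.110 for Mfap5, against 0.283 before. The SD among vasostatin-2 libraries was then 0.37 for Pi16 and 0.143 for Mfap5, so Pi16 varied more with saline and Mfap5 less. The saline SD also rose for Clec3b, Gsn, Entpd2, Ly6c1 and Cd34, and also fell for Dpp4, Dpt and Serpinf1. The list used for that scaling was itself lowest in saline replicate 2, at −0.384 log2 CPM from its mean, and highest in saline replicate 1, at 0.287.

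Genes of parenchymal fibroblasts, the other main resident state, were evenly split, with 8 of 16 higher and a median of 0.024. Leaving out 1 library moved that median to between −0.080, when vasostatin-2 replicate 2 was left out, and 0.176, when its replicate 3 was. With replicate 3 of both groups left out it was 0.260. By edgeR and by DESeq2 0 were called, and 3 had an unadjusted p under 0.05. Mgp, an inhibitor of calcification, was at 659.6 ± 93.1 TPM with vasostatin-2 and 569.5 ± 116 TPM with saline, and Lpl, lipoprotein lipase, at 462 ± 75.9 and 401 ± 192 TPM (SD, n = 3 each). In 3 genes every vasostatin-2 library lay below every saline library. They were the basement membrane collagens Col4a1 and Col4a2, and Col15a1. Their log2 fold changes were −0.29, −0.26 and −0.19 (adjusted p = 0.681, 0.684 and 0.710 by edgeR). Which cells made the transcripts of this list cannot be told in RNA of a whole artery.

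Genes of activated fibroblasts were lower with vasostatin-2 in 13 of 18 tested, with a median of −0.086. Without saline replicate 1 the median was 0.170, and without saline replicate 2 it was −0.256. By edgeR and by DESeq2 0 were called, and 1 had an unadjusted p under 0.05. Postn, periostin, was at 2537 ± 444 TPM with vasostatin-2 and 2703 ± 1067 TPM with saline, and Acta2, smooth muscle actin, at 824 ± 358 and 682 ± 258 TPM (SD, n = 3 each). Acta2 is also a gene of smooth muscle cells. The groups did not overlap for Cilp, a cartilage matrix protein, which was the higher with vasostatin-2 (log2 fold change 0.40, adjusted p = 0.679 by edgeR), or for Fap, the fibroblast activation protein, which was the lower (log2 fold change −0.23, adjusted p = 0.719 by edgeR).

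**Figure D4:**
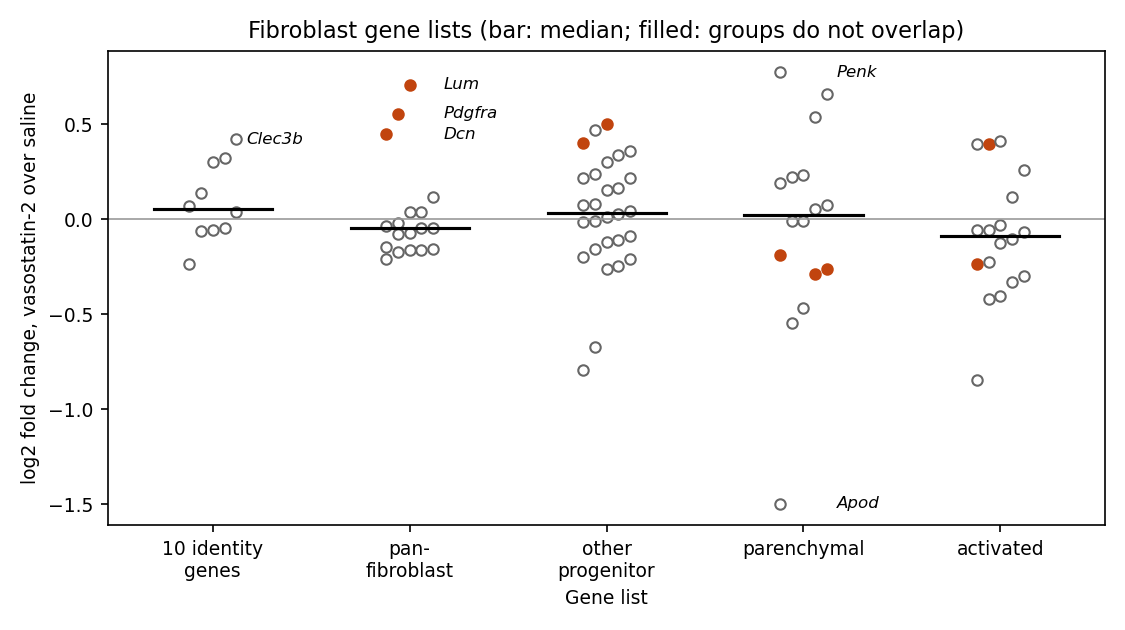
Log2 fold change, vasostatin-2 over saline, of each tested gene in the 10 identity genes and 4 other fibroblast lists (points), with the list median as a bar and filled points where the libraries of the groups do not overlap in scaled CPM. The medians lie between −0.086 and 0.055, and 0 of the 10 identity genes, 3 of 18 pan-fibroblast, 2 of 28 other progenitor, 3 of 16 parenchymal and 2 of 18 activated fibroblast genes are filled, beside 12.8% of all genes.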

How the data were processed

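The authors deposited 1 table with an estimated count, an FPKM and a TPM value per gene and library, the group means of these, and log2 fold changes with p-values and q-values; a positive deposited log2 value means higher with vasostatin-2. Per the submitters' processing notes, HISAT2 2.1.0, DESeq2 1.26.0 and GRCm38.p6 were used. The counting tool and strandedness are not given in the sources used here, so antisense and overlapping genes cannot be separated. The deposited FPKM values were not used.

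Levels are the authors' TPM. Deposited estimated counts were rounded; 65.6% were whole (exact). Genes were filtered with filterByExpr, and 14557 remained. TMM factors were between 0.985 and 1.01. edgeR 4.0.16 (R 4.3.3) fitted treatment alone, with robust quasi-likelihood dispersions and Benjamini-Hochberg adjustment at 0.05; log2 CPM used a prior count of 2. The SE was derived from the quasi-likelihood F. DESeq2 1.42.0 and limma 3.58.1 were alternatives; 584 adjusted p-values of DESeq2 were undefined. Only the edgeR fit was tested on simulated counts, in which every gene had the same dispersion. Sequences were aligned with Biopython 1.88.

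The genes and lists were chosen with earlier results of these data known. All 10 genes are named; of each other fibroblast list and of the endothelial list, the 2 with the highest mean TPM and up to 2 without overlap between groups and with the lowest p. Same-numbered libraries were not paired in the main fit, since no label says that they share an animal, litter or day. The correlations of their deviations from the group means were −0.119, 0.025 and 0.027. With 3 libraries per group these correlations cannot settle whether a pairing exists. Mesothelial markers summed to at most 7.20 TPM; adipocyte, macrophage and lymphatic lists were computed for composition.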

Additional observations from a re-analysis of the deposited data

How the results depend on the processing

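No setting called any of the 10 genes. All genes called were 0 with edgeR, 113 with DESeq2, 27 when scaled to the general fibroblast list, and between 0 and 2 when 1 library was left out (2 without saline replicate 2). Genes of the 10 with a log2 fold change above 0 numbered 6, and between 3 (without saline replicate 2) and 9 (without saline replicate 3) when 1 library was left out; their median then lay between −0.047 and 0.237, and was 0.214 without both replicates 3. With replicate number as a block, 0 genes were called, 6 of the 10 were above 0 and their median was 0.067. No label says whether a shared replicate number marks a shared animal, litter or day. Pi16, Clec3b, Gsn and Mfap5 kept their sign in all 17 settings.

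Signs turned as follows. Without both replicates 3, log2 fold changes were 0.23 for Dpp4, −0.056 for Serpinf1, 0.19 for Entpd2, 0.12 for Ly6c1 and 0.022 for Pecam1. Serpinf1 was −0.02 when scaled to the fibroblast list, and Cd34 −0.017 with limma-voom. Leaving out 1 library gave ranges of −0.29 to 0.17 for Dpp4, −0.0094 to 0.27 for Dpt, −0.067 to 0.16 for Serpinf1, −0.21 to 0.071 for Entpd2, −0.21 to 0.20 for Ly6c1, −0.063 to 0.27 for Cd34, −0.36 to 0.13 for Col3a1, −0.22 to 0.10 for Sparc, −0.10 to 0.69 for Lpl, −0.275 to 0.25 for Postn and −0.0995 to 0.041 for Pecam1. The cause of these turns was not tested. With 3 libraries per group the 95% interval of Clec3b ran from −0.40 to 1.24 and that of Serpinf1 from −0.29 to 0.36, which limits what could be detected. Scaling to the fibroblast list moved the median of all genes to −0.084.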

Other observations

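Among 10 genes of monocytes and macrophages, 9 were higher with vasostatin-2, beside 49.8% of all genes, and the median log2 fold change was 0.22. In 5 of 10 the groups did not overlap, beside 12.8% of all genes. By edgeR and by DESeq2 0 of them passed the adjusted test, and 5 of 10 had an unadjusted p under 0.05, beside 7.14% of all genes. Adgre1, which encodes a surface receptor of macrophages, was at 257, 301 and 297 TPM with vasostatin-2, against 199.6, 228 and 178 TPM with saline (log2 fold change 0.50, adjusted p = 0.579 by edgeR). Ccr2, the chemokine receptor of inflammatory monocytes, was at 173 ± 28.2 TPM with vasostatin-2 and 124 ± 23.3 TPM with saline (SD, n = 3 each). Lyz2 and C1qb were the most abundant of the list. Lyz2 was at 7503 ± 636 TPM with vasostatin-2 and 7339 ± 2042 TPM with saline, a log2 fold change of 0.026. C1qb was at 1947 ± 165 and 1547 ± 97.0 TPM, a log2 fold change of 0.336 (SD, n = 3 each). The list summed to between 13380 and 14060 TPM with vasostatin-2 and between 10700 and 15160 TPM with saline, so the sums overlapped. Of 10 adipocyte genes 7 were higher, with a median of 0.14, and of 6 lymphatic genes 5 were higher, with a median of 0.50, beside 49.8% of all genes. By edgeR 2 adipocyte and 3 lymphatic genes had an unadjusted p under 0.05, beside 7.14% of all genes. The groups did not overlap in 1 adipocyte and 1 lymphatic gene, beside 12.8% of all genes. The 10 contractile smooth muscle genes were all above 0 in log2 fold change, beside 49.8% of all genes, with a median of 0.40. In 0 of these 10 the groups were free of overlap, and 0 had an unadjusted p under 0.05 by edgeR. Over all genes these shares were 12.8% and 7.14%. The sum of the 10 was highest, at 538 TPM, in vasostatin-2 replicate 3, the library with the most skeletal muscle transcripts. In vasostatin-2 replicate 2 it was 474 TPM, where the skeletal muscle list summed to 117 TPM. In vasostatin-2 replicate 1 it was 219 TPM, and with saline at most 380.0 TPM. The part of skeletal muscle in these sums was not tested. By edgeR 0 genes of the adipocyte, lymphatic and smooth muscle lists were called. DESeq2 called 0 genes of the adipocyte and smooth muscle lists and 1 of the lymphatic list, beside 0.776% of all genes. That gene was Mmrn1, a multimerin of lymphatic endothelium, at 58.8 ± 9.82 TPM with vasostatin-2 and 34.4 ± 9.57 TPM with saline (SD, n = 3 each). Its log2 fold change was 0.79 (adjusted p = 0.0234 by DESeq2 and 0.548 by edgeR).

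Apod, a lipid-binding protein in the parenchymal fibroblast list that nerve sheath cells also make, was at 75.9, 106 and 56.1 TPM with vasostatin-2, against 43.4, 54.0 and 591 TPM with saline. The high value was in saline replicate 3. The 10 adventitial genes together summed to 3451, 3492 and 3356 TPM with vasostatin-2, against 3016, 2867 and 3785 TPM with saline, so the highest and the lowest sums were both in the saline group.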
